A study of Triticum aestivum and Triticum monococcum subsp. aegilopoides x Triticum urartu with 8 samples.

Results

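In hybrid necrosis the leaves of a hybrid die although its parents are healthy, and in wheat it is known to follow from the meeting of incompatible genes of the parents. The symptoms resemble a defence reaction, with cell death and loss of green tissue, but no pathogen is needed. The probes described here report leaf messages that were present in wild-type hybrids and strongly lower in hybrids with each of 2 kinds of necrosis.

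The members were chosen by their measured change. For each array the log2 of the scanner's processed intensity was taken, less the 75th percentile of that array, and all levels below are on this log2 scale. A member is a transcript probe without an outlier flag that exceeded background clearly on both arrays of each wild type and whose mean level was lower by 3 or more, that is at least 8-fold lower, in type I necrosis and in type IV necrosis. Of 37826 transcript probes, 22036 were above background in both wild types and free of outlier flags, and 113 of these (0.513%) met the rule. The names on the array are those of expressed sequence contigs and cDNA clones, such as whsh_allContig461. No probe name on the array, those of the 113 included, matched the RefSeq gene table of 155467 wheat genes. Gene names, functions and sequences of the probes were not used here, so the members are described by their probe names and values.

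The 8 samples were first leaves of seedlings grown for 1 week at 23 °C without treatment, 1 single-colour Agilent array each, in 4 groups of 2. The hexaploid groups were wild-type hybrids of Triticum aestivum (common wheat) and hybrids with type I necrosis. The diploid groups were wild-type hybrids of Triticum monococcum subsp. aegilopoides and Triticum urartu and hybrids with type IV necrosis. The parents of each hybrid are not named, so what separates a necrosis group from its wild type may be any difference between those hybrids, and necrosis and the rest of the genotype cannot be told apart. Whether the 2 arrays of a group hold RNA of separate plants is not stated, so p-values measure the spread between samples that may be technical repeats.

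Slide 1 carried the 4 hexaploid arrays and slide 2 the 4 diploid ones, so levels are not compared between the wheats, and on each slide wild type and necrosis took different positions. The 75th percentile, in units of processed intensity, was between 1681 and 2409 on the 4 hexaploid arrays, at 591 and 558 for diploid wild type and at 1207 and 1509 for type IV. Relative to the E1A spike-in controls, RNA added in known amounts, all type I changes moved up by 0.42 and all type IV changes by 1.34 on the log2 scale. Before scaling, these controls had a mean log2 intensity of 14.16 and 13.69 in hexaploid wild type, against 13.85 and 14.04 in type I. For the diploid the values were 10.29 and 10.21 in wild type, against 10.25 and 10.02 in type IV. The hexaploid wild-type pair thus differed by more than the 0.42 shift, and every type I result with spike-in scaling carries that uncertainty. Scaled to these controls, all 113 members stayed lower than wild type, but 47 of them met the rule. No transcript spot was saturated. Leaf tissue could not be checked against its markers, because none of the leaf marker genes looked for matched a probe name. Fewer cells of a type and less RNA per cell cannot be told apart in leaf RNA.

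The values of the 113 probes that follow were used to choose them and are given as a description, without a test. In hexaploid wheat the median level of the members was 1.34 and 1.30 in the wild-type arrays, against -3.74 and -3.71 with type I necrosis. In diploid wheat it was 3.67 and 3.65 in the wild-type arrays, against -0.55 and -1.57 with type IV necrosis. Over the 22036 probes above background in both wild types, the median lay between -0.69 and -0.54 on all 8 arrays. The smallest gap of a member between its lowest wild-type and its highest necrosis array was 1.67 in type I and 1.78 in type IV. That no member overlapped follows largely from the rule, and nothing is read from it. The 113 probes held 2.00% and 1.94% of the summed transcript intensity of hexaploid wild type, against 0.135% and 0.136% in type I. On the diploid arrays they held 4.27% and 4.31% in wild type and 0.576% and 0.434% in type IV.

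**Figure D1:**
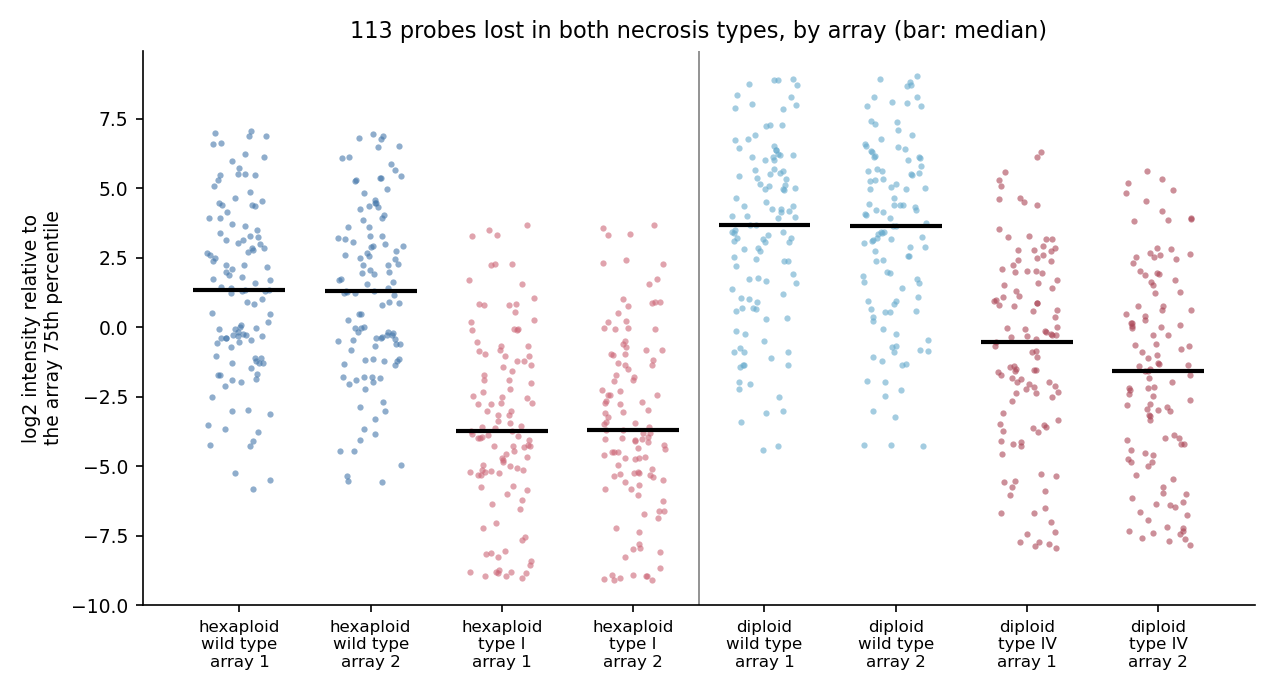
Each point is 1 of the 113 probes on 1 array, with its level (log2 intensity relative to the array's 75th percentile) on the y axis, and the bars are medians. The medians drop from 1.34 and 1.30 to -3.74 and -3.71 in the hexaploid and from 3.67 and 3.65 to -0.55 and -1.57 in the diploid, where the type IV arrays also differ from each other.

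The median log2 change over the members was -3.76 in type I (13.6-fold lower) and -4.35 in type IV (20.4-fold lower). Over all probes tested in a comparison, the median change was 0.07 in type I and -0.05 in type IV. The members' changes reached from -12.55 to -3.01 in type I and from -9.70 to -3.03 in type IV. The lowest of each, whsh_allContig461 and rwhsc20m17_429, were not above background in that necrosis type, and were -9.41 and -6.84 with normexp. The counts that follow also include values below background. In type I, 51 members were lower by 4 or more, 24 by 6 or more and 8 by 8 or more. In type IV the numbers were 67, 17 and 4. Among the 22036 probes, 313 (1.42%) were lower by 3 or more in type I and 762 (3.46%) in type IV. The members are 36.1% of the first list and 14.8% of the second, and a further 200 and 649 probes were that much lower in type I only and in type IV only. In the limma fit over all probes, 5587 of 28520 probes tested (19.6%) were called lower in type I and 6539 (22.9%) higher, 42.5% in either direction. In type IV 9619 of 24631 (39.1%) were called lower and 8341 (33.9%) higher, 72.9% in either direction. That fit called all 113 members lower in each comparison, and since the rule used these contrasts nothing is read from it. The split of calls over all probes moved with the processing. With spike-in scaling 1540 were lower and 3174 higher in type I, and in type IV, where the split turned, 1947 were lower and 16304 higher. With median centring 8013 were lower and 10329 higher in type IV, and with normexp background correction 6648 were lower and 6208 higher in type I.

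**Figure D2:**
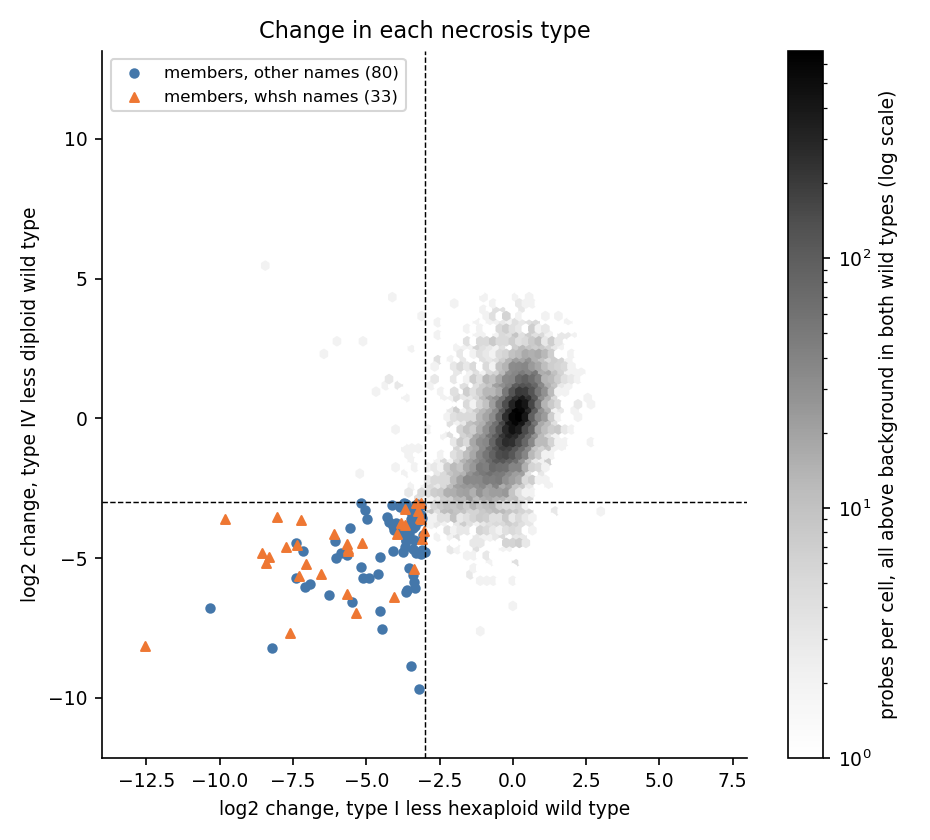
The x axis is the log2 change in type I and the y axis that in type IV. Grey cells count all 22036 probes above background in both wild types, the dashed lines are the rule's limit of -3, and the 113 members lie in the lower left, 33 with names of the whsh group as triangles.

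The falls in the necrosis types were loosely related in size. Across the 113 members, which are not independent replicates, they correlated at r = 0.393 (Spearman's rho = 0.428). The change was the more negative one in type I for 54 members and in type IV for 59. For 63 members the changes differed by 1 or less, for 13 the type I change was deeper by 2 or more, and for 11 the type IV change was deeper by 2 or more. These counts depend on the scaling, since spike-in scaling moves type I and type IV by unequal amounts. With it the change was deeper in type I for 86 members and in type IV for 27, by 2 or more for 22 and 3, and the median changes were -3.35 in type I and -3.01 in type IV. The wild-type levels of the members in the 2 wheats correlated at 0.835 across probes, close to 0.853 over all 22036 probes. The wild-type level and the change correlated weakly, at -0.236 in type I and -0.002 in type IV. Each correlation is across probes that share arrays and a threshold, and is a description.

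Many members could still be measured in necrosis. On all 4 necrosis arrays 81 of the 113 were well above background. A group of 10 was above background on the pair of type IV arrays and on neither type I array, and 9 showed the converse. Another 6 were not well above background on any necrosis array. The remaining 7 were above it on only 1 array of a necrosis group. Where no array of a group was above background the fall is a bound, written "at least", taken against a floor: on each array the dimmest well-above-background probe sets it, unless the member itself reads higher. Such a bound holds for the scanner's own background correction only: with normexp, which adds an offset of 50 to each intensity, the fold was below the bound for 17 of 17 members in type I and 15 of 17 in type IV. Over all members, the normexp fold was smaller by more than 1.5 times for 48 in type I and 35 in type IV. Of these, 28 and 14 were above background on both arrays of that necrosis type.

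The probe with the deepest fall in its milder comparison was MUGEST2003_23lib_Contig438_355. Its hexaploid levels were 0.51 and 0.46 in wild type against -7.67 and -7.81 in type I, and its diploid levels 6.36 and 6.41 against -1.51 and -2.15 in type IV. In type I neither array was above background for it, so that it was at least 150-fold lower there (45.1-fold with normexp), and 298-fold lower in type IV, where it was still above background. The second was whsh_allContig461, at 4.39 and 4.35 in hexaploid wild type, where its unscaled intensities were 35350 and 35437, and at -8.25 and -8.10 in type I, with intensities of 7.90 and 8.13. Neither type I array was above background for whsh_allContig461, so it was at least 2216-fold lower there (680-fold with normexp). Its levels in the diploid were 5.07 and 5.33 in wild type and -1.41 and -4.52 in type IV. The type IV arrays of whsh_allContig461 thus lay 3.10 apart, and both were far below wild type. Both MUGEST2003_23lib_Contig438_355 and whsh_allContig461 carried a background outlier flag on at least 1 array. The rule as applied left out flags of the spot itself only.

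The probe whsh_allContig314, went from -1.27 and -1.32 to -8.83 and -8.94 in the hexaploid, at least 43.5-fold lower (15.1-fold with normexp). In the diploid it went from 3.20 and 3.21 to -3.48 and -5.44. For MUGEST2003_23lib_Contig14582_393 the hexaploid levels were 1.34 and 1.30 against -8.95 and -9.04, at least 267-fold lower (91.6-fold with normexp). This probe again showed unequal type IV arrays, at -0.32 and -2.86, against 5.13 and 5.27 in wild type. Of the 10 members with the deepest fall in their milder comparison, 6 were not well above background in type I, and all 10 were above it on both type IV arrays.

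The other 4 of these 10 were above background on all 8 arrays, so that their changes are measured on both sides. The probe wheat0130Contig10934 had hexaploid levels of 2.38 and 2.26 against -3.89 and -3.98, and diploid levels of 4.24 and 4.20 against -1.96 and -2.27. Its falls were 76.4-fold and 80.7-fold, with a type I change of -6.26 that was -5.58 with normexp. The probe wheat0130Contig12796 stood at 4.66 and 4.56 against -2.54 and -2.43 in the hexaploid, and at 6.12 and 6.08 against -0.25 and 0.38 in the diploid. These are falls of 137-fold and 65.3-fold. Levels of whsh_allContig956 were 1.59 and 1.61 against -3.99 and -4.12, and 4.34 and 4.39 against -2.32 and -1.51. Those of whsh_allContig941, which carried a background outlier flag on at least 1 array, were 5.06 and 4.98 against -2.23 and -2.31, and 7.83 and 7.95 against 1.97 and 2.52. The groups did not overlap for any of the 4, as for every member, which follows largely from the rule.

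The last members of the 10 were MUGEST2003_23lib_Contig3392_423 and rwhdl4i13. The first went from -0.30 and -0.29 to -7.22 and -7.21 in the hexaploid, at least 87.2-fold lower (24.6-fold with normexp), and at 1.20 and 1.08 against -4.29 and -5.32 in the diploid. The second was at -0.58 and -0.62 against -8.07 and -7.93, at least 70.7-fold lower (23.9-fold with normexp), and at 2.50 and 2.56 against -3.35 and -2.99.

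**Figure D3:**
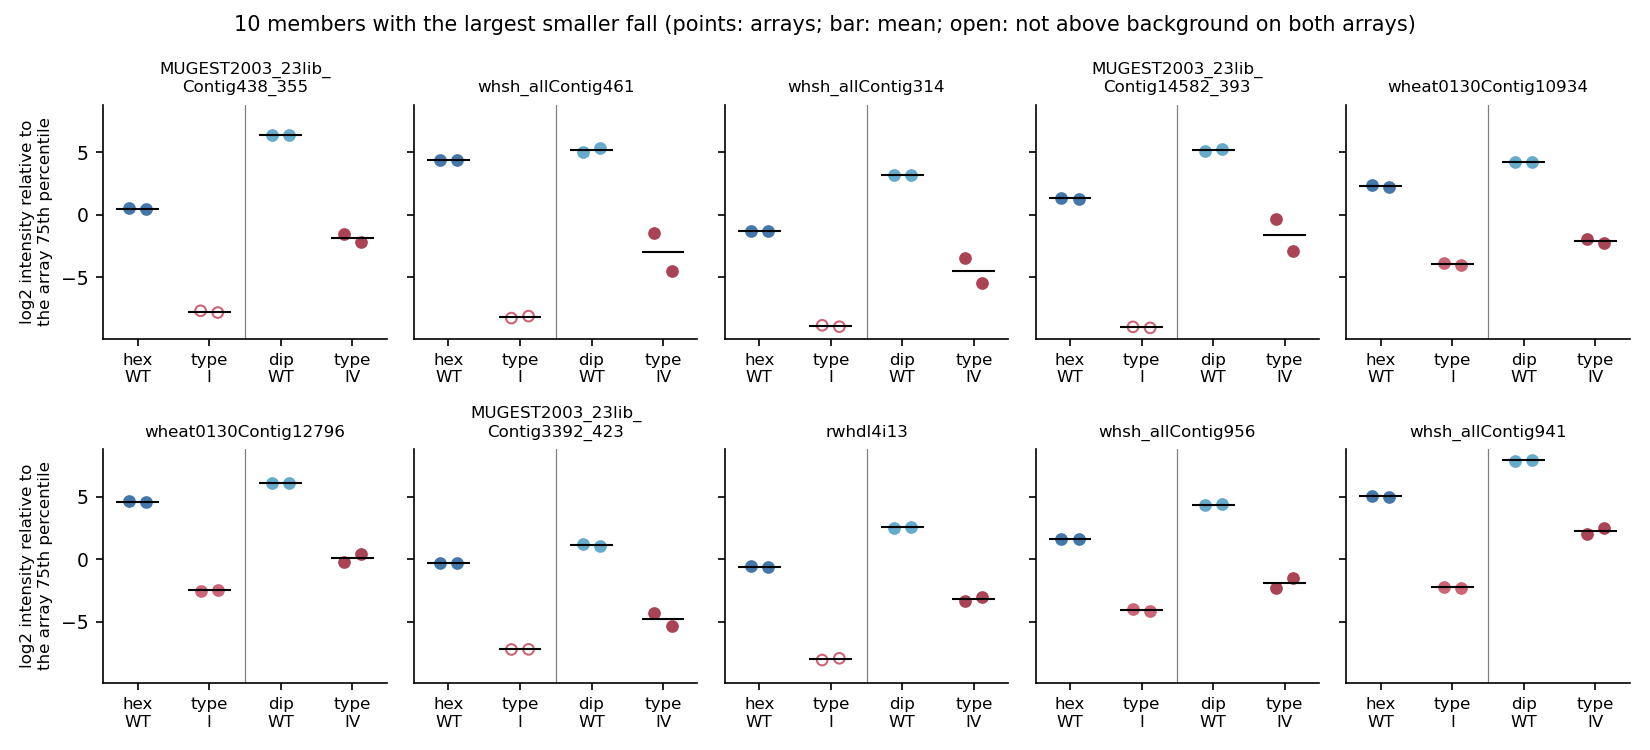
Levels on each array of the 10 members whose smaller fall was largest, as log2 intensity relative to the array's 75th percentile, with a bar at the group mean. Open points mark groups not above background on both arrays, which is the case in type I for 6 of the 10 and in type IV for none.

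Some members were far deeper in 1 necrosis type. The probe whsh_allContig574 went from 6.11 and 6.07 to -3.74 and -3.71 in the hexaploid, an 899-fold fall measured above background on both sides. In the diploid it went from 6.44 and 6.49 to 2.84 and 2.85, a 12.3-fold fall with closely matching arrays. Likewise whsh_allContig946 went from 2.25 and 2.24 to -6.35 and -6.27 in the hexaploid (375-fold) and from 4.36 and 4.43 to -0.55 and -0.28 in the diploid (28.0-fold). For whsh_allContig1026 the falls were 346-fold and 36.6-fold, from 4.35 and 4.27 to -4.25 and -4.01 and from 5.50 and 5.47 to 0.62 and -0.04. With normexp the type I changes of whsh_allContig574, whsh_allContig946 and whsh_allContig1026 were -9.28, -6.91 and -7.72 in place of -9.81, -8.55 and -8.44. The type IV change of whsh_allContig574, -3.62, was -2.28 with spike-in scaling and -2.93 with quantile normalization over 8 arrays. Of the 13 members deeper by 2 or more in type I, 9 had whsh names.

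The opposite lean was seen for rwhsc20m17_429 and rwhvh9i02_356. The first went from -0.32 and -0.34 to -3.62 and -3.47 in the hexaploid, a 9.29-fold fall, and went from 3.15 and 3.11 to -6.49 and -6.65 in the diploid, where it was not above background in type IV and so at least 423-fold lower (114-fold with normexp). The second was at 2.17 and 2.25 against -1.23 and -1.28 in the hexaploid, a change of -3.47, and at 3.05 and 3.03 against -5.35 and -6.27 in the diploid. Only 1 of the type IV arrays was above background for rwhvh9i02_356, so the 461-fold fall as measured, a change of -8.85 that was -6.77 with normexp, is not an exact size. Of the 11 members deeper by 2 or more in type IV, 2 had whsh names. These differences between the types come from the values that chose the members and were not tested.

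The 3 brightest members of each wild type, 4 probes in all, stayed well above background in necrosis, unlike whsh_allContig461 in type I. Of these 4, all but wheat0130Contig15419 carried a background outlier flag on at least 1 array. The probe wheat0130Contig14378 went from 7.05 and 6.94 to 3.29 and 3.35 in the hexaploid, and from 8.93 and 9.03 to 6.30 and 5.31 in the diploid. Its unscaled intensity was 222768 and 212624 in hexaploid wild type and still 23629 and 22708 in type I. The probe wheat0130Contig15419 was at 6.86 and 6.80 against 0.83 and 0.77, and at 8.89 and 8.83 against 3.53 and 4.18, falls of 65.4-fold and 32.0-fold. The probe whsh_allContig1233 was at 6.99 and 6.88 against 3.68 and 3.69, and at 8.72 and 8.69 against 5.57 and 5.18. The probe whsh_allContig1161 was at 6.89 and 6.77 against 3.49 and 3.56, and at 8.87 and 8.93 against 6.11 and 5.62. The type IV changes of wheat0130Contig14378, whsh_allContig1233 and whsh_allContig1161 were -3.18, -3.33 and -3.04. With quantile normalization over 8 arrays they were -1.64, -1.84 and -1.41, and with spike-in scaling -1.83, -1.99 and -1.69. For wheat0130Contig15419 the change was -5.00, and -3.56 and -3.66 with these settings. In type I 17 members and in type IV 45 had a mean above the array's 75th percentile. Brightness depends on the probe as well as on the message, so these levels do not rank the messages.

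At the rule's limit the members passed into the rest without a gap. Just inside it in type I were whf9c03 with a change of -3.01, rwhsh14j24 with -3.04 and wheat0130Contig10675 with -3.05. Just outside were whsh_allContig209 and MUGEST2003_23lib_Contig13881_331, each with -2.99, and wheat0130Contig5417 with -2.97. In type IV, wheat0130Contig8382 with -3.03 and whsh_allContig1161 and wheat0130Contig1137, each with -3.04, were just inside. The nearest outside were wheat0130Contig9270 and wheat0130Contig2174, with -2.9992 and -2.9977, and wheat0130Contig52 with -2.99. The probes wheat0130Contig2174 and wheat0130Contig52 were bright ones, at 6.55 and 6.45 and at 6.10 and 6.02 in hexaploid wild type, with type I changes of -3.81 and -3.79.

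Some name groups held more members than others. Probes whose names begin with whsh or rwhsh made up 939 of the 22036 probes above background in both wild types (4.26%) and 33 of the 113 members (29.2%). The files do not say what the letters stand for. This group was noticed after its values were seen and is described without a test. In it 3.51% of the probes were members, against 0.474% of 9274 probes named wheat0130Contig (44 members), 0.465% of 3871 named MUGEST2003_23lib_Contig (18 members) and 0.440% of 1136 in the whfl group (5 members). Some groups had none, among them 1029 clones named MUG and, of smaller size, 491 probes of the whoh group. Over all 22036 probes the share was 0.513%, so that few members would be looked for in a small group.

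The whsh probes that were not members were lower in necrosis too. Of these 906 probes, 445 (49.1%) were called lower in type I and 110 higher by limma with Benjamini-Hochberg adjustment over all probes, against 4289 lower (20.3%) and 5209 higher of the 21097 probes with other names. In type IV 569 (62.8%) were called lower and 184 higher, against 8383 (39.7%) and 7018. Their median change was -0.47 in type I and -1.02 in type IV, against 0.07 and -0.07 for the other names. With spike-in scaling the medians were -0.05 and 0.32 against 0.48 and 1.28, so that the direction in type IV turned while the distance to the other names was the same by construction, -0.54 and -0.95. With spike-in scaling 189 were lower and 29 higher in type I, and 227 lower and 375 higher in type IV. Settings that can change the distance to the other names made it smaller. With quantile normalization over 8 arrays, the same within each wheat, and normexp, it was -0.50, -0.46 and -0.48 in type I. In type IV it was -0.63, -0.69 and -0.72. Without type IV array 1 or 2 the distance in type IV was -1.04 or -0.78. The type I counts moved with the arrays fitted: without any 1 hexaploid array, 325 to 344 whsh probes were lower and 39 to 51 higher, against 2473 to 2863 lower and 2068 to 2559 higher of the other names. Without either type IV array, 547 whsh probes were lower and 169 higher in type I. Lower medians were not confined to whsh names. Members included, the medians in type I and type IV were -0.41 and -1.01 for 39 whvh probes. For 115 whv probes they were -0.32 and -0.98. All remaining name groups had medians above these in both comparisons.

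The whsh probes were also brighter in wild type. Their median level was 2.29 in hexaploid and 2.73 in diploid wild type, against -0.69 and -0.54 over all 22036 probes. The fall that can be measured is limited by the distance to background, so the groups were also set side by side among probes with a mean above 3 in both wild types. There 20 of 335 whsh probes (5.97%) were members, against 14 of 1215 probes with other names (1.15%). The median changes of these bright probes were -0.99 in type I and -1.92 in type IV for whsh names, members included, and -0.01 and -0.28 for other names.

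**Figure D4:**
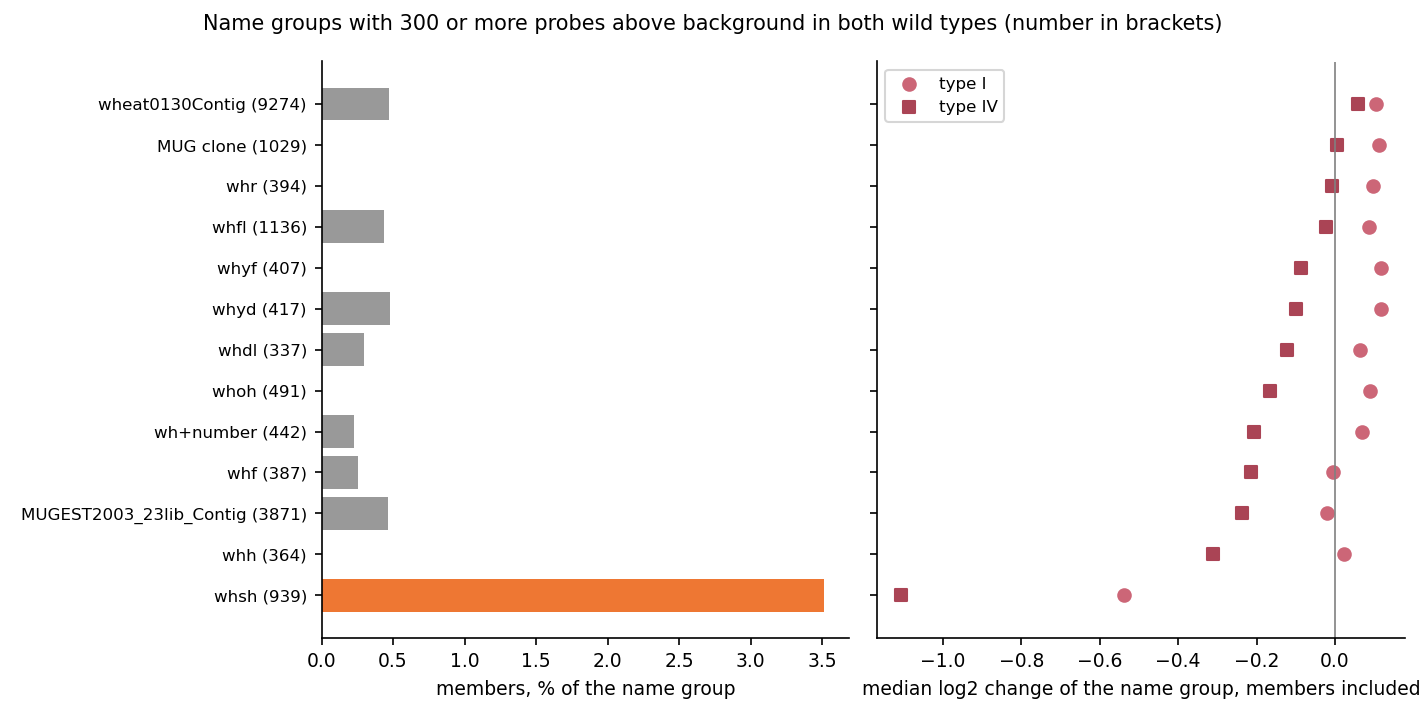
Name groups with at least 300 probes above background in both wild types. The left panel gives the share of each group that are members (3.51% for whsh, 0 to 0.480% for the others) and the right panel the median log2 change of the whole group, -0.54 in type I and -1.11 in type IV for whsh.

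Among the members themselves, the 33 with whsh names had a median change of -5.63 in type I and -4.50 in type IV. The other 80 had -3.63 and -4.27. The whsh members were the brighter ones in wild type, with median levels of 4.09 in the hexaploid and 6.16 in the diploid against -0.06 and 2.69. Of the 33, 31 exceeded background on both arrays of type I and 32 on both of type IV, against 62 and 60 of the other 80. The change was deeper in type I for 21 of the 33 and for 33 of the other 80. By name, 44 members called wheat0130Contig had median changes of -3.64 and -3.92, and 18 called MUGEST2003_23lib_Contig had -3.72 and -4.64.

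The arrays of type IV were less even for the members than those of the other groups. The rule used the mean of the pair, so a low value on either array helped a probe to pass, and the difference between them is a description. Of the 113 members, 88 were lower on type IV array 2 than on array 1, and the median difference, array 2 less array 1, was -0.63. Over the 22036 probes the median difference was 0.02, and 47.5% were lower on array 2. Members lower on array 2 by 1 or more numbered 30, and none was higher by as much. Of all 22036 probes, 735 (3.34%) were lower by 1 or more. Among the 649 probes that met the limit in type IV only, 454 were lower on array 2, with a median difference of -0.40. In type I 46 of 113 members were lower on array 2, with a median difference of 0.02. In hexaploid wild type 94 were, against 53.9% of all 22036 probes, but by a median of only -0.08. The median SD of a member was 0.06 in hexaploid wild type, 0.05 in type I, 0.04 in diploid wild type and 0.47 in type IV (n = 2 each). Over the 22036 probes the median SD was also highest in type IV, at 0.15, against 0.045 and 0.051 in hexaploid and diploid wild type and 0.033 in type I.

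**Figure D5:**
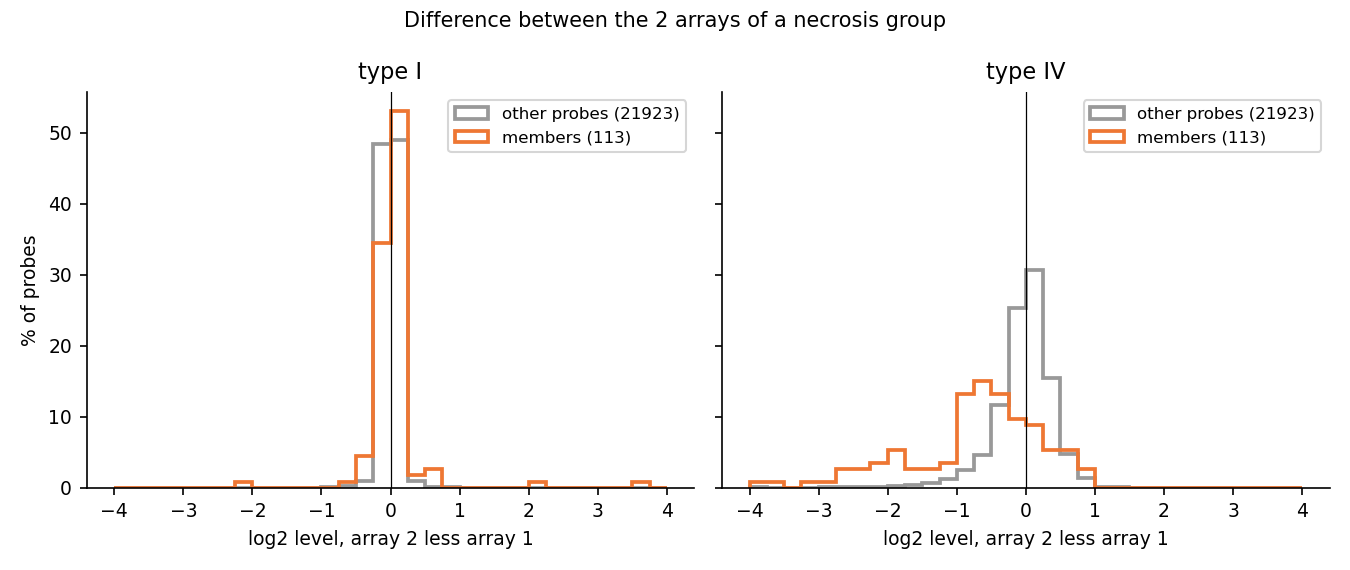
Histograms of the difference between the 2 arrays of a necrosis group (log2 level, array 2 less array 1), as a percentage of the 113 members and of the other 21923 probes above background in both wild types. In type I both are centred near 0, and in type IV the members have a median of -0.63 and 30 of them lie at -1 or lower.

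The widest type IV pair was that of rwhem18l21_627, at -1.86 and -5.74, with the second array below background, against 0.65 and 0.54 in wild type. For wheat0130Contig14770 the type IV arrays read -3.61 and -7.33, 1 of them not above background, against 0.69 and 0.66 in wild type, and whsh_allContig461, above, came next. In the hexaploid, where most arrays matched closely, wheat0130Contig2879 read -8.12 and -4.51 in type I against -1.67 and -1.79 in wild type. The probe MUGEST2003_23lib_Contig2766_868 read -4.56 and -6.73 against -1.90 and -2.05, and wheat0130Contig8215 read -8.79 and -6.62 against -3.78 and -4.94. On 1 of the type I arrays each of these 3 was not above background. By type IV array 1 alone 92 of the 113 members met the rule, of 93 probes selected, and by array 2 alone 112 did, of 136 selected.

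A further view came from other probes of the same clone or contig. For 6 names with a member the array holds a second probe. Names were compared without a leading r, a trailing number and a letter p or m set before that number. Over the whole array, 1012 such pairs were tested in both comparisons, and the changes of their probes correlated across pairs, as a description, at 0.7496 in type I and 0.589 in type IV. In 1 pair both probes were members. The probe rwhyd19b03 went from 1.43 and 1.31 to -2.71 and -2.66 in type I and from 1.66 and 1.59 to -1.84 and -2.94 in type IV, and whyd19b03 went from -1.86 and -1.98 to -6.21 and -5.58 and from -2.21 and -2.26 to -5.58 and -6.39, not above background in type IV and so at least 10.09-fold lower there (4.79-fold with normexp). Their changes were -4.06 and -3.97 in type I and -4.01 and -3.75 in type IV.

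The other 5 second probes were not members, and 4 of them could be tested in at least 1 comparison. For whrd19d18_663, the partner of rwhrd19d18_251, the levels were -3.70 and -3.65 against -7.32 and -5.16 in the hexaploid and -2.28 and -2.08 against -4.77 and -5.67 in the diploid. It fell by 2.57 in type I (SE 0.70, adjusted p = 0.0307 by limma) and by 3.04 in type IV (SE 0.70, adjusted p = 0.00912 by limma), with 1 array of each necrosis group above background. The member itself had changes of -3.27 and -3.06. For whsh_allContig94_2 the falls were 3.34 in type I (SE 0.29, adjusted p = 0.000632 by limma) and 2.32 in type IV (SE 0.29, adjusted p = 0.000751 by limma), beside -8.03 and -3.54 for whsh_allContig94. It was not above background in type I, so the first size is not exact.

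The probe whsh_allContig113_2 was tested in type IV only and fell by 2.12 (SE 0.23, adjusted p = 0.000439 by limma), from -3.30 and -3.16 to -4.98 and -5.70. Its SD was 0.51 in type IV and 0.10 in diploid wild type, while the SE rests on a spread shared by the 4 groups. Its member whsh_allContig113 had changes of -6.56 and -5.57. For MUGEST2003_23lib_Contig4655_m_126 the falls were 0.65 in type I (SE 0.11, adjusted p = 0.00569 by limma) and 1.43 in type IV (SE 0.11, adjusted p = 0.000102 by limma), much smaller than the -3.63 and -3.07 of MUGEST2003_23lib_Contig4655_p_232. The names of this pair differ in the letter m or p as well as in the number. The last, whvh9i02_46, was above background on no array. With spike-in scaling the tested changes of the 4 probes stayed below 0, the smallest being -0.09 for MUGEST2003_23lib_Contig4655_m_126 in type IV.

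Gene lists for photosynthesis, defence, oxidative stress, seed storage, transport and translation found no probe by name, so whether the members belong to them is not known here. A list for cold and dehydration found 6 named probes, none of them a member. In type I 1 of the 6 was tested and none was called. In type IV 2 were tested, 1 was called lower and none higher.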

How the data were processed

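Per the labels' protocols, total RNA from first leaves was labelled with Cy3 from 0.5 µg. The deposited files give each spot's intensity from Agilent Feature Extraction (10.10.1.1 per the file headers, 9.5 per the submitters' processing notes), whose processed intensity already has the background removed, per the file headers. The authors' deposited value table holds the same intensities times 1 factor per array (0.926 to 3.12), linear and not centred. Only the 37826 transcript probes entered, less 68 with an outlier flag on a spot. From log2 levels less the 75th percentile, limma 3.58.1 in R 4.3.3 fitted a mean per group over all 8 arrays (4 residual and 1.73 prior degrees of freedom) for probes that exceeded background on every array of at least 1 compared group. Calls are two-sided at a Benjamini-Hochberg adjusted p under 0.05. The 4 groups share 1 spread per probe, although the median SD over the 22036 probes was 0.154 in type IV and 0.033 to 0.051 in the others. An SE or p-value may therefore be too small in type IV and too large in type I. The number of arrays limits the precision. Of 10 E1A spike-in probes, the 4 above background on all arrays scaled the spike-in alternative. The fit was tested on simulated data. Named probes are those with the deepest falls in both or in either type, the brightest, those nearest the limit, the least even pairs, and partner probes. Members, lists and name groups were chosen with earlier results of these data known. Alternatives are given in the closing section.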

Additional observations from a re-analysis of the deposited data

Results flagged for a closer look

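The probe MUGEST2003_23lib_Contig4655_m_126 changed differently in the necrosis types by the limma test of the difference itself: type IV less type I was -0.78 (adjusted p = 0.0081). With spike-in scaling the direction turned, to 0.14, and with normexp it was -0.74. It fell in each, by 0.65 and by 1.43. Its member partner MUGEST2003_23lib_Contig4655_p_232, whose name has the letter p in place of m, had changes of -3.63 and -3.07. That partner was above background on no necrosis array. The cause was not tested.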

How the results depend on the processing

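All 113 members stayed below wild type in each comparison under every scaling, background correction and left-out array that was run. As members were chosen for changes of -3 or lower, this outcome was largely fixed by the choice and is not support. The number meeting the rule was 69 with normexp (chosen after seeing the data, since the planned intensity column is not in the files), 47 with spike-in scaling, and 93 to 136 when 1 array was left out, lowest without type IV array 2. It was 102 with values floored at background, 92 without probes with a background outlier flag (added after seeing the data) and 81 above background on all 8 arrays. The median change in type I was -3.310 with normexp, -3.701 with median centring, -3.866 and -3.670 with quantile normalization over 8 arrays or within each wheat, -3.346 with spike-in scaling, -3.735 in the authors' value table and -3.665 with the floor, and -3.810 to -3.713 with an array left out. In type IV it was -3.702 with normexp, -3.798 with quantile normalization over 8 arrays, -3.005 with spike-in scaling, and -4.677 to -3.884 with an array left out. Of 638 values of named members under alternatives, 193 moved by more than the spread between arrays. None changed sign, which the choice of members also largely fixed.

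Calls over all probes in type I numbered 4714 with spike-in scaling and 18926 with each wheat fitted alone. Without an array they numbered 6191 to 16614: 7091 or 7354 without hexaploid wild type 1 or 2 and 6191 or 6262 without type I array 1 or 2, where fewer samples were fitted. No effect shared by same-numbered arrays was seen, as their deviations correlated at -0.05 in the hexaploid and -0.01 in the diploid. With 1 pair of differences per wheat, this cannot show that they share no batch. With the replicate number as a block the calls were 8958 in type I and 16588 in type IV, in place of 12126 and 17960. With normexp 12615 were lower and 6609 higher in type IV.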

Other observations

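The members were spread over the array. Of its 532 rows, 4 equal blocks from the first to the last held 25, 34, 31 and 23 members, and the sides with the lower and higher column numbers held 57 and 56. Of all pairs of members, 5 lay within 2 rows and 2 columns of each other.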
